A study of Mus musculus with 6 samples.

Results

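Zbtb16 and 9 other genes tied to glucocorticoid signalling were followed in mouse liver lacking RECS1, now called Tmbim1, in hepatocytes. The genes are Zbtb16, Nr3c1, Hsd11b1, Fkbp5, Tsc22d3, Sgk1, Dusp1, Tat, Mt1 and Mt2, and the set was chosen by the lower Zbtb16 values of the knockout, to see whether other glucocorticoid-responsive genes moved with it. All 23 probe sets annotated to these 10 genes were used, of 38208 in the table. A probe set is a group of short array probes for 1 transcript, and a gene with several is represented by the one with the highest mean over all 6 arrays, here called its main probe set. The comparison is between 3 livers with floxed RECS1 alleles (RECS1-flox, the control) and 3 livers with hepatocyte-specific RECS1 deficiency (RECS1-HKO, below HKO). All 6 mice were C57BL/6, were 16 weeks old and had been fed a high-fat diet (HFD) for 8 weeks. The sources used here do not name the Cre driver of the deletion, the sex of the mice or the hour of dissection.

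Glucocorticoids such as corticosterone diffuse into hepatocytes and bind the glucocorticoid receptor, which waits in the cytoplasm in a complex with heat shock proteins and their co-chaperones. The bound receptor enters the nucleus and docks at glucocorticoid response elements, or changes transcription through other factors, and so raises genes of amino acid breakdown, glucose output and feedback on its own signal. In liver the hormone is regenerated locally from its inactive form, and its level in blood follows time of day, feeding and stress. Zbtb16, also called PLZF, encodes a zinc finger repressor with a BTB domain that glucocorticoids induce in several cell types, and it also directs the development of natural killer T cells.

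Regulatory sequence near the start sites of the members gives the context for the values that follow. RefSeq start site windows of GRCm38.p6, each reaching from 250 bases before a start to 50 bases after it, were found for 8 of the 10 genes (15 windows) and not for Zbtb16 and Nr3c1. They were searched on both strands for a full palindromic glucocorticoid response element (AGAACA, any 3 bases, TGTTCT), a metal response element core (TGCACNC or TGCGCNC) and a full cAMP response element (TGACGTCA). The 4 stretches shown are those of Sgk1, Mt2, Mt1 and Dusp1. The stress kinase Sgk1 had the lowest p of the tested members. The metallothioneins Mt2 and Mt1 followed each other over the arrays in their main probe sets. Dusp1 is a phosphatase. All are written on the strand of the gene, and capitals mark the motif searched.
Sgk1, chr10:21993670-21993749, plus strand, glucocorticoid response element: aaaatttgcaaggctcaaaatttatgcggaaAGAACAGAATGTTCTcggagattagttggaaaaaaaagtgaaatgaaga
Mt2, chr8:94172388-94172577, plus strand, metal response elements: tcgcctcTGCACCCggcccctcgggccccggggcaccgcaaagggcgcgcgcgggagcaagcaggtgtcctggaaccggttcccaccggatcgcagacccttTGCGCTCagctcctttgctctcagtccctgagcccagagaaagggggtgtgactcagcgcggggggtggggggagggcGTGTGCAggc
Mt1, chr8:94179029-94179088, plus strand, metal response element: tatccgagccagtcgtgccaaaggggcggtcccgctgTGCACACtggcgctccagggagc
Dusp1, chr17:26508583-26508642, minus strand, cAMP response element: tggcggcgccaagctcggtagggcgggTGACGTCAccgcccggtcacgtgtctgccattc

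The full glucocorticoid element was present in 1 of the 6 Sgk1 windows, from 189 to 175 bases before that start, and in 3 of all 32851 windows (0.00913%). No other member window held it, which says only that these letters are not in these windows. The metal core occurred 4 times in the Mt2 window, a number reached or passed in 0.517% of all windows, and 3 times in the Mt1 window, reached or passed in 1.97%, while 25.7% of all windows held it at least once. Of the Mt1 matches, 1 lies before the start and is the one shown. The single windows of Hsd11b1 and Dusp1 and 1 window of Sgk1 also held this core once each. The full cAMP element, from 143 to 136 bases before the Dusp1 start, was found in 1.79% of all windows. Each match is a match of letters and not a measured binding site.

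The deleted gene was checked first. Tmbim1 stood at 7.62, 7.58 and 7.74 in the control livers and at 7.19, 7.14 and 7.06 in the HKO livers. It fell by 0.52 ± 0.08 (SE) log2 units (limma adjusted p = 0.026). Its 1 probe set may lie outside the deleted part, which was not tested. Hepatocyte markers were bright on every array, with a mean over 7 markers between 11.8 and 11.9 in control and between 11.8 and 12.0 in HKO livers. Over all 18029 genes, 182 passed the threshold of an adjusted p under 0.05 in either direction, which is 1.01% of those tested (0.56% higher and 0.449% lower in HKO), and the count lay between 78 and 161 when any 1 array was left out.

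Zbtb16 was the member that led to this set, and its values are therefore a description without a test. Its main probe set stood at 7.37, 7.43 and 6.84 in the control livers and at 5.87, 5.12 and 4.14 in the HKO livers. The groups did not overlap, and in this probe set the HKO livers differed among themselves by more than the control livers did. The means were 7.21 ± 0.32 and 5.04 ± 0.87 (log2, SD, n = 3 each), a difference of -2.17 ± 0.38 (SE), or 0.222 times the control level. Groups were separate with HKO below in 10.1% of all genes, and since this contrast chose the gene nothing is read from that. In whole-liver RNA, fewer cells of a type and less RNA per cell cannot be told apart.

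The other 2 probe sets of Zbtb16 were lower in HKO as well. One stood at 5.54, 5.48 and 4.89 in control and at 4.51, 4.11 and 4.17 in HKO livers, a difference of -1.04 ± 0.18. There the control livers varied more than the HKO livers, with SDs of 0.36 and 0.22. The other, of a kind that may also bind related transcripts, went from 5.73, 6.14 and 5.50 to 4.50, 2.90 and 2.15, a difference of -2.60 ± 0.49. Control 3 had the lowest control value in all 3 probe sets. The differences of the 3 probe sets span a wide range. In the last one HKO 2 and HKO 3 lay below the array medians, which ranged from 3.92 to 3.95, and HKO 1 above them.

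Natural killer T cells and other innate lymphocytes also carry Zbtb16, so their markers were read beside it. Of 9 measured markers of these cells, none passed the test, and all 9 lay below the brightness of the median gene (4.69). Their mean level ranged from 2.94 to 3.23 in control and from 2.96 to 3.06 in HKO livers, and their median log2 difference was -0.04. Those of lowest p were Il2rb at -0.20, Tbx21 at -0.18 and Ncr1 at 0.15. None of 6 T and B lymphocyte markers passed either, with mean levels from 4.16 to 4.39 and from 4.12 to 4.25. Of the markers of other cells none passed: 8 of macrophages (median 0.05), 4 of neutrophils (-0.43), 6 of endothelial cells (-0.07), 7 of stellate cells and fibroblasts (-0.05), 4 of cholangiocytes (-0.25), 3 of erythrocytes (-0.01) and 2 of adipocytes (-0.07). The lowest p among the markers of other cells was that of Cd163 of macrophages, at -0.48. Its limma adjusted p of 0.05005 missed the threshold. Of the 8 macrophage markers 4 stood above 0 and 4 below. Sox9 of cholangiocytes, below the median gene in brightness, stood at -0.66 (0.171). In Cd163 and Sox9 the HKO values lay below all control values, as in 10.1% of all genes. The part of any of these cell types in the Zbtb16 values was not tested.

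**Figure D1:**
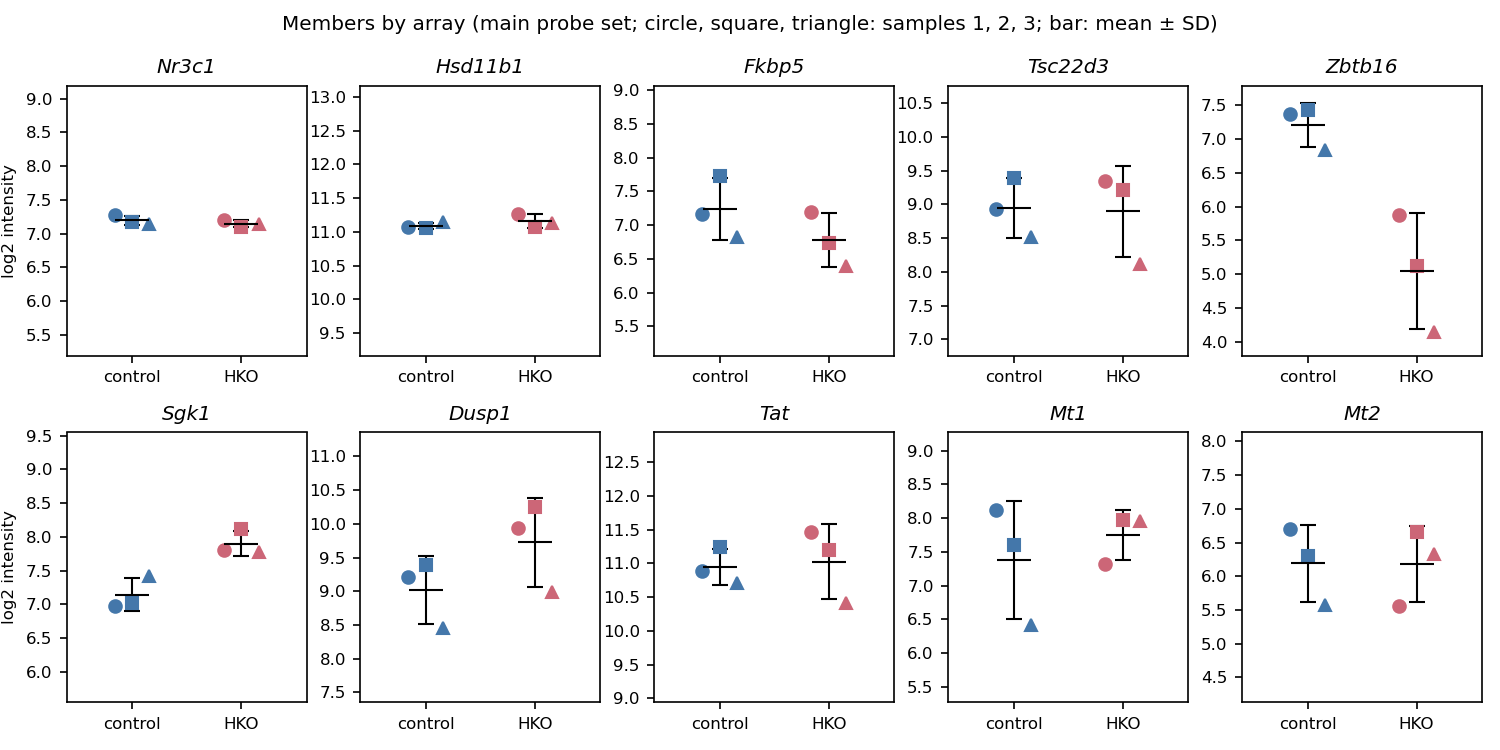
Log2 intensity of the main probe set of each member (vertical axis, the same span of 4 log2 units in every panel) in control and HKO livers, with a circle, square and triangle for samples 1, 2 and 3 and bars for the mean ± SD of 3 arrays. Zbtb16 and Sgk1 are the panels in which the groups do not overlap, while Fkbp5, Tsc22d3, Tat and Dusp1 show the triangles lowest in both genotypes.

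None of the 9 other members passed the test (limma, adjusted over all genes, against 1.01% called over all genes), with 1 at an unadjusted p under 0.05, a level reached by 13% of all genes. Among their 20 probe sets none passed in the fit of all 38195 non-control probe sets, in which 0.702% passed, and 3 had an unadjusted p under 0.05. These were of Sgk1, Nr3c1 and Mt1, those of Nr3c1 and Mt1 being other than the main ones and dimmer than the median gene. The share of all probe sets at this level was not counted. The median log2 difference of the 9 members was 0.07, beside 0.00 for all genes, with 5 of the 9 above 0 and 4 below. The 95% intervals of these differences reached from 0.17 to 0.89 log2 units to either side, against a median of 0.21 for all genes, the widest being that of Mt1, from 0.699 to 2.41 times the control level. Among them Sgk1 alone had groups that did not overlap, as 18.7% of all genes did in either direction.

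Nr3c1 encodes the glucocorticoid receptor itself. Its main probe set stood at 7.27, 7.18 and 7.15 in control and at 7.20, 7.11 and 7.14 in HKO livers. These values overlapped and lay close together, with a difference of -0.05 (95% interval -0.22 to 0.12, adjusted p = 0.823). The 6 probe sets of the gene lay between -0.23 and 0.29. One dim probe set was separate between the groups, at 4.18, 4.26 and 4.26 against 4.04, 3.94 and 4.03. Its difference was -0.23 ± 0.08 (limma adjusted p = 0.287 in the fit of all probe sets). By main probe sets, 10.1% of all genes were separate with HKO below.

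Hsd11b1 encodes the enzyme that regenerates active glucocorticoid from its inactive 11-keto form in liver. It stood at 11.07, 11.05 and 11.14 in control and at 11.27, 11.07 and 11.14 in HKO livers. The groups overlapped, with a difference of 0.07 (95% interval -0.11 to 0.26, adjusted p = 0.763). As folds, the 95% intervals ran from 0.859 to 1.09 times the control level for the receptor and from 0.925 to 1.19 times for this enzyme.

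Fkbp5 encodes a co-chaperone that lowers the receptor's affinity for hormone and is induced by it, a negative feedback loop. Its values were 7.17, 7.73 and 6.83 in control and 7.19, 6.74 and 6.40 in HKO livers. The highest HKO liver lay between control 1 and control 2, so the groups overlapped. The difference was -0.46 ± 0.25 (95% interval -1.05 to 0.12, adjusted p = 0.498), and the 3 probe sets lay between -0.46 and -0.02. It was -0.22 without control 2, -0.27 without HKO 3 and -0.18 by the median of the probe sets. Tsc22d3, also called GILZ, encodes a leucine zipper protein that mediates anti-inflammatory actions of glucocorticoids. It stood at 8.93, 9.39 and 8.51 in control and at 9.35, 9.22 and 8.12 in HKO livers. The groups overlapped, though HKO 3 lay below all control values. The difference was -0.05 ± 0.33 (95% interval -0.81 to 0.72, limma adjusted p = 0.969). Its 4 probe sets lay between -0.15 and 0.06.

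Sgk1 encodes a serum- and glucocorticoid-regulated kinase that acts on ion transport and cell survival. Its 1 probe set stood at 6.98, 7.02 and 7.42 in control and at 7.80, 8.11 and 7.78 in HKO livers. All 3 HKO values lay above all 3 control values, which held with HKO above in 8.58% of all genes. The difference was 0.76 ± 0.14 (SE), or 1.69 times the control level (95% interval 1.35 to 2.12), with a limma adjusted p of 0.0578 that missed the threshold. The direction was opposite to that of Zbtb16. Across 18 other settings the difference lay between 0.648 and 0.957, and the call was made in 7 of them, among them the fit without control 3 (adjusted p = 0.0383), while it was missed in the fits without any 1 of the other arrays (adjusted p from 0.111 to 0.202).

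Dusp1 encodes a phosphatase that switches off mitogen-activated protein kinases and is induced by glucocorticoids and by many stresses. It stood at 9.22, 9.39 and 8.45 in control and at 9.94, 10.25 and 8.99 in HKO livers. HKO 3 lay among the control values and the other 2 HKO livers above all of them. The difference was 0.71 ± 0.34 (95% interval -0.07 to 1.49, adjusted p = 0.436). It was 0.42 without control 3, 0.44 without HKO 2 and 1.08 without HKO 3. Because Dusp1 is also an immediate early gene, other genes of that class were read beside it. This list, like the others below, was chosen with earlier results of these data known, so its count is a description. Of 10 measured, 2 rose and none fell, against 0.56% of all genes called higher and 0.449% called lower: the AP-1 subunit Jun by 1.33 ± 0.11 (adjusted p = 0.00163), and the nuclear receptor Nr4a1 by 1.01 ± 0.15 (0.0249). The Nr4a1 call ended without control 1 (adjusted p = 0.0703), without control 2 (0.0707), without control 3 (0.0848), without HKO 1 (0.0586) and without HKO 3 (0.0621). Egr1, an early zinc finger factor, stood at 0.44 (0.156).

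Tat encodes tyrosine aminotransferase, the enzyme that starts tyrosine breakdown and a classical glucocorticoid-induced liver gene. Its values were 10.89, 11.24 and 10.71 in control and 11.47, 11.20 and 10.41 in HKO livers. The highest and the lowest value both belonged to HKO livers, and the difference was 0.08 ± 0.26 (95% interval -0.51 to 0.67, adjusted p = 0.932). Of the other 6 measured enzymes of phenylalanine and tyrosine breakdown none passed, with differences between -0.02 and 0.11. Those of lowest p were Gstz1 at 0.11, Pcbd1 at 0.10 and Qdpr at 0.10.

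Mt1 and Mt2 encode metallothioneins, small cysteine-rich proteins that bind zinc and copper and are induced by metals, glucocorticoids and inflammation. Mt1 stood at 8.12, 7.60 and 6.42 in control and at 7.33, 7.98 and 7.96 in HKO livers, a difference of 0.38 ± 0.39 (95% interval -0.52 to 1.27, adjusted p = 0.742). Mt2 stood at 6.70, 6.30 and 5.58 in control and at 5.56, 6.66 and 6.33 in HKO livers, a difference of -0.01 ± 0.33 (95% interval -0.77 to 0.75, adjusted p = 0.993). The arrays had the same order in the main probe sets of both genes within each genotype. Control 3 was lowest and control 1 highest, and HKO 1 was lowest and HKO 2 highest. Near-identical sequences of the metallothionein genes can share probes, so the likeness of their values is uncertain. The dimmer Mt1 probe set stood at 0.36 ± 0.13 (limma adjusted p = 0.317 in the fit of all probe sets). Its control values were 4.54, 4.10 and 4.29, so control 2 and not control 3 was lowest there.

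Genes of zinc handling were read beside the metallothioneins. None of 6 passed, with a median of -0.08. Slc39a4, a zinc importer, stood at 0.35 (adjusted p = 0.436), Slc30a1, a zinc exporter, at -0.24 (0.502, with its other probe set at 0.15), and Mtf1, the metal-sensing factor that binds metal response elements, at -0.12 (0.640).

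**Figure D2:**
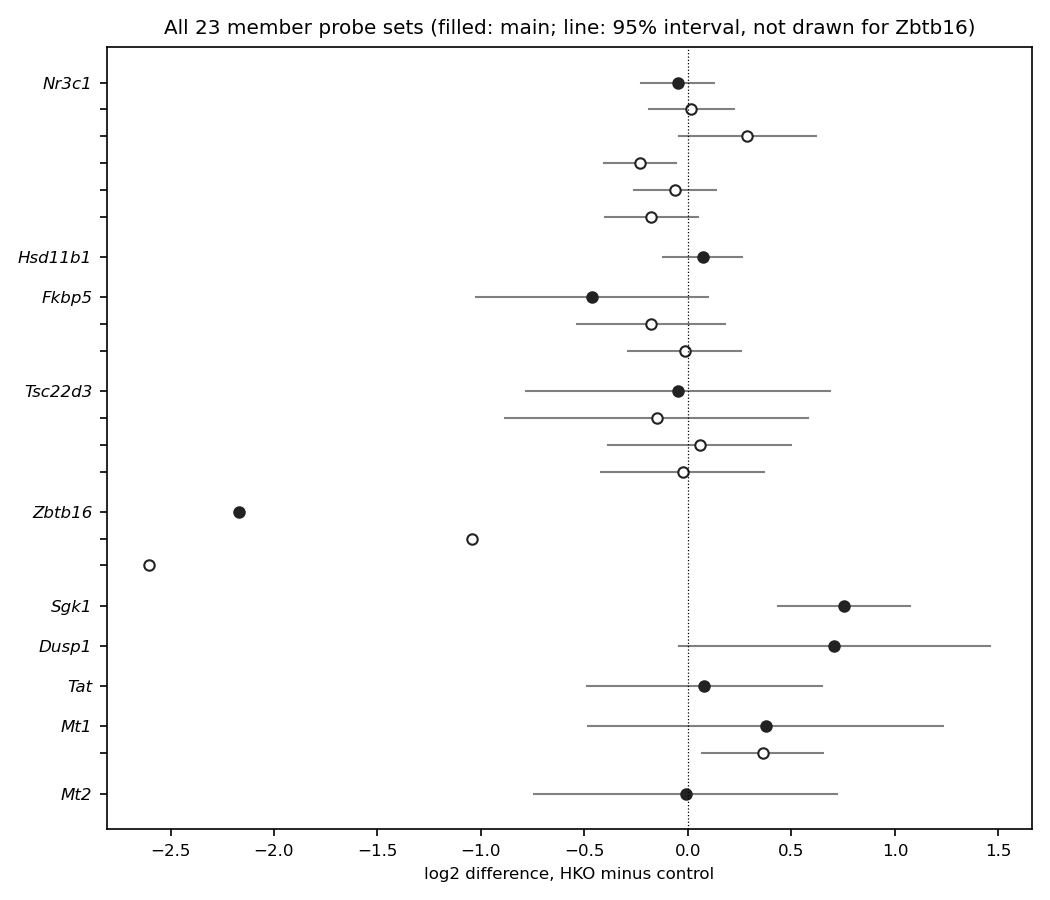
Log2 difference (HKO minus control, horizontal axis) of all 23 member probe sets, with filled points for main probe sets, open points for the others and lines for the 95% intervals of limma, which are not drawn for Zbtb16 because its values chose the set. The 3 Zbtb16 points lie between -2.60 and -1.04, and the intervals of 17 of the other 20 probe sets cross 0.

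The members differed widely in how much the livers of 1 genotype varied. The pooled SD within genotypes was 0.06 for Nr3c1 and 0.08 for Hsd11b1, and 10.9% and 25.3% of all genes had a smaller one. It was 0.65 for Zbtb16, 0.67 for Mt1, 0.58 for Dusp1, 0.57 for Tsc22d3 and for Mt2, 0.43 for Tat and for Fkbp5, and 0.22 for Sgk1, against a median of 0.11 for all genes. The share of all genes that varied less was 99.7% for Zbtb16 and Mt1, 99.5% for Mt2, Dusp1 and Tsc22d3, 99.0% for Tat and 98.9% for Fkbp5.

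This spread within genotypes had a shared order. In Zbtb16, Fkbp5, Tsc22d3, Tat and Dusp1, control 3 was the lowest control array, control 2 the highest, and HKO 3 the lowest HKO array. That combination held in 5 of the 10 members and in 5.01% of all genes. Control 3 was the lowest control array in 8 members, against 34.5% of all genes, and HKO 3 the lowest HKO array in 6, against 31.1%. In Tsc22d3 the gap of HKO 3 to its genotype mean was -0.78, in Dusp1 -0.74, in Tat -0.62 and in Zbtb16 -0.90, beside genotype differences of -0.05, 0.71, 0.08 and -2.17 in these genes. The order was noticed in these values and is given as a description.

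**Figure D3:**
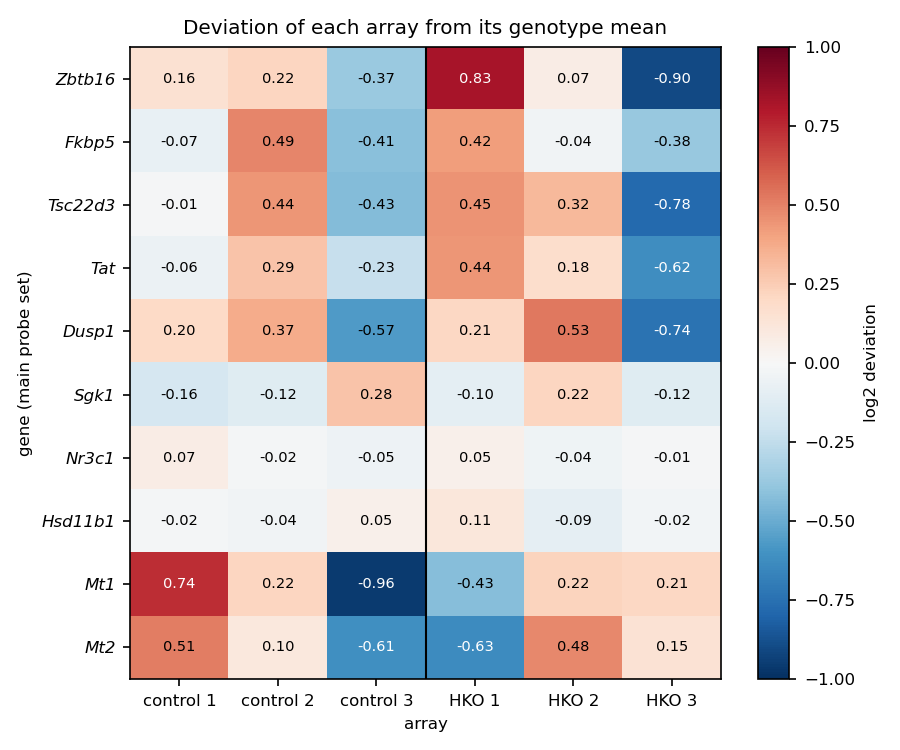
Deviation of each array (columns) from the mean of its genotype in each member (rows), in log2 units, from blue (below) to red (above), with the value printed in each cell. The first 5 rows are negative in control 3 and in HKO 3, while the Mt1 and Mt2 rows are lowest in control 3 and HKO 1.

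Other genes that glucocorticoids induce in liver were read for the same order, from a list of 25 of which 24 were measured. HKO 3 was the lowest HKO array in 20 of these 24 genes and control 2 the highest control array in 16, against 31.1% and 28.2% of all genes, while control 3 was the lowest control array in 10, against 34.5%. A low HKO 3 was not particular to this list. HKO 3 was also the lowest HKO array in each measured receptor chaperone but Fkbp4, and in the tyrosine enzymes Hpd, Hgd, Gstz1 and Fah. It was not the lowest in Qdpr and Pcbd1, or in the hormone supply genes Serpina6, Akr1d1 and H6pd. All 3 positions together held in only 7 of the 24 genes, among them the 3 shown next, against 5.01% of all genes. Cdkn1a, a cell cycle inhibitor, stood at 7.45, 8.06 and 6.81 in control and at 7.22, 7.33 and 6.58 in HKO livers. Ddit4, an inhibitor of mTOR complex signalling, stood at 6.24, 6.76 and 5.97 and at 7.23, 7.58 and 6.76. Bcl6, a zinc finger repressor of the same BTB class as Zbtb16, stood at 7.95, 8.33 and 5.62 in control and at 6.15, 7.12 and 5.21 in HKO livers. These 3 genes were named after their values were seen.

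By genotype, 2 of the 24 genes rose (against 0.56% of all genes), none fell, and the median log2 difference was 0.05. Igfbp1, an insulin-repressed and glucocorticoid-induced binding protein of insulin-like growth factors, rose by 1.04 ± 0.13 (limma adjusted p = 0.0123), though not without control 2 (0.0535). Nfkbia, the NF-kB inhibitor, rose by 2.38 ± 0.09 (9.98e-06) in its main probe set, but its other 4 probe sets stood between -0.02 and 0.12. With its probe sets reduced to their median Nfkbia stood at 0.109 (adjusted p = 0.627), and by the probe set brightest in control livers at 0.0768 (0.779). The main probe set of Nfkbia was thus the brightest only with the HKO arrays included, and its call rests on that choice. Orm1, an acute phase glycoprotein, stood at -0.51 (0.0984), and passed with trend and robust options of eBayes (0.045).

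Supply and clearance of the hormone held 2 further genes past the threshold. Of 6 measured genes of this list 2 rose and none fell, where 0.56% of all genes were called higher, with a median of 0.21. Serpina6, which encodes the corticosteroid-binding globulin that carries corticosterone in blood, stood at 9.26, 8.95 and 9.39 in control and at 10.29, 9.90 and 9.93 in HKO livers. The groups were separate, as with HKO above in 8.58% of all genes. Serpina6 rose by 0.84 ± 0.14 (limma adjusted p = 0.041). Leaving out any 1 array ended that call, with an adjusted p of 0.124 without control 1, 0.115 without control 2, 0.0716 without control 3, 0.132 without HKO 1, 0.0662 without HKO 2 and 0.0879 without HKO 3, and with differences between 0.714 and 0.935. Akr1d1, the reductase that inactivates glucocorticoids and also serves bile acid synthesis, rose by 0.72 ± 0.10 (0.0178), and its other probe set stood at 0.92. It no longer passed without control 1 (0.0733), control 2 (0.0627), control 3 (0.0648) or HKO 1 (0.0505). H6pd, which makes the cofactor that Hsd11b1 uses, stood at 9.88, 9.67 and 9.78 in control and at 9.26, 9.55 and 9.40 in HKO livers, a difference of -0.38 ± 0.10 (0.157).

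Of 7 measured chaperones that hold the receptor none passed, with a median of -0.07 and 6 of 7 below 0. Stip1, the co-chaperone that joins HSP70 and HSP90, stood at 6.59, 6.62 and 6.61 in control and at 6.27, 6.29 and 6.15 in HKO livers (-0.37 ± 0.07, adjusted p = 0.0685). It passed without the genes below the median (0.0356) and with trend and robust options (0.0417). Hsp90aa1, the inducible HSP90, stood at -0.37 ± 0.08 (0.102), with its other 3 probe sets between -0.68 and -0.33. Reduced to the median over probe sets it stood at -0.60 and passed (0.0161), and it also passed with trend and robust options (0.0382). Ppp5c, a phosphatase of the complex, stood at 0.15 (0.476). In both Stip1 and Hsp90aa1 the HKO values lay below all control values, as in 10.1% of all genes.

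None of 10 measured coregulators of nuclear receptors passed, with a median of -0.01. Those of lowest p were Ncoa3, a coactivator, at -0.31 (adjusted p = 0.188), Smarca4, a chromatin remodelling ATPase, at 0.22 (0.403), and Med1, a Mediator subunit that nuclear receptors contact, at -0.20 (0.498). Of these, Smarca4 has another probe set at -0.19, and the median of its probe sets stood at 0.01. The other 6 probe sets of Med1 lay between -0.23 and 0.09, and the median over its probe sets stood at 0.03. The other probe set of Ncoa3 stood at -0.13.

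Relatives of the members did not pass either. Of 23 measured family members none passed, with a median of 0.07. Zbtb20, a BTB zinc finger repressor of liver, stood at 8.62, 8.79 and 8.46 in control and at 8.37, 8.26 and 8.15 in HKO livers (-0.36 ± 0.10, adjusted p = 0.197), and its other 8 probe sets lay between -0.39 and -0.29. Tsc22d2 stood at 0.30 (0.191) and Sgk3, a kinase related to Sgk1, at 0.34 (0.218). Mt3 and Mt4, the metallothioneins best known from brain and skin, lay below the median gene, with differences of 0.10 and 0.00.

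**Figure D4:**
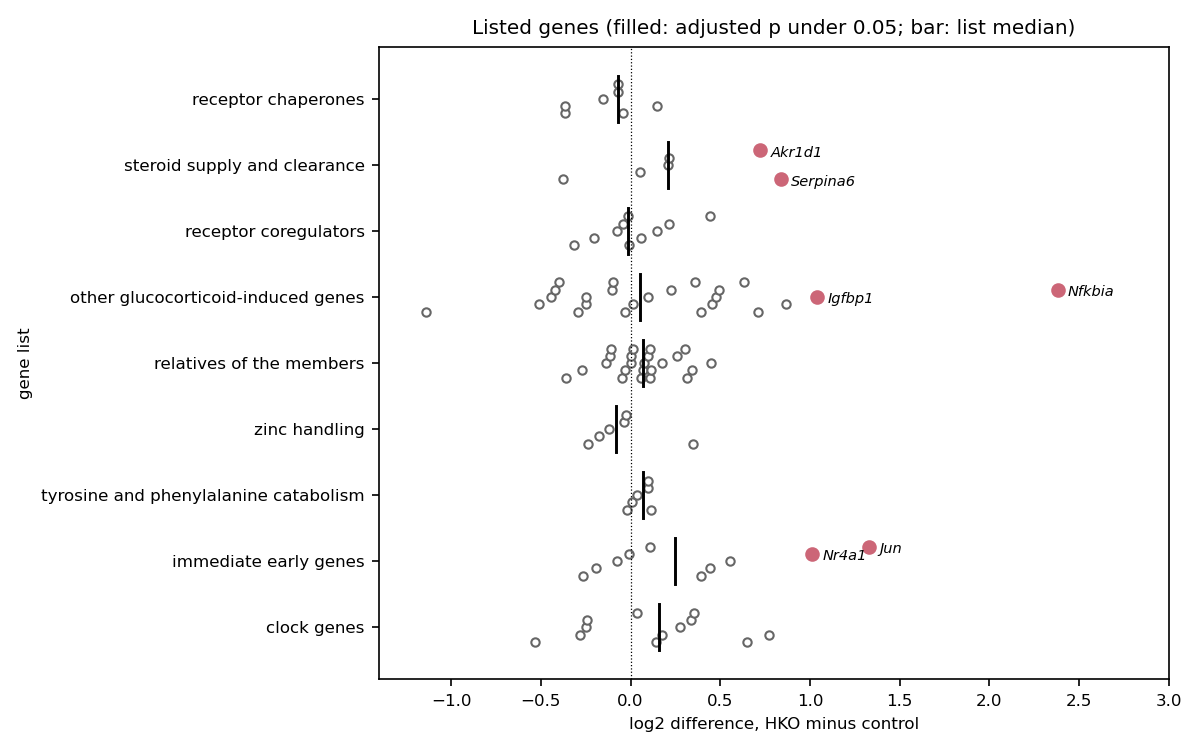
Log2 difference (HKO minus control, horizontal axis) of each measured gene of the 9 lists (rows), with filled points for genes past an adjusted p of 0.05 and a bar for the median of the list. The 6 filled points are Akr1d1, Serpina6, Igfbp1, Nfkbia, Jun and Nr4a1, all above 0, while the list medians lie between -0.08 and 0.25.

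Over the chaperone, supply, coregulator and induced gene lists together, 4 of 47 measured genes rose and none fell, with a median of -0.01. Over all genes, 0.56% were called higher and 0.449% lower. Since the lists were chosen with earlier results of these data known, the count is a description and no enrichment is read from it. The count called lay between 1 and 3 when any 1 array was left out (1 without control 2, 2 without control 1, control 3 or HKO 1). The 1 call left without control 2 was that of Nfkbia, whose other 4 probe sets stood between -0.02 and 0.12. Its main probe set was not the one brightest in control livers. Clock genes were read because blood corticosterone follows the time of day. None of 12 passed by genotype, with a median of 0.16. The array numbered 2 was lowest in both genotypes in Dbp, Per2, Per3, Nr1d1, Nr1d2 and Tef, and highest in both in Arntl and Cry1. In Clock, Npas2, Cry2 and Ciart it did not hold the same extreme in both. Dbp stood at 7.18, 5.57 and 6.97 in control and at 7.71, 6.57 and 7.37 in HKO livers. This order was noticed in these values, and its share over all genes was not counted. Cry2, a repressor of the clock, stood at 0.33 (adjusted p = 0.0805, and 0.0383 without the genes below the median), Nr1d1, a haem-binding repressor, at -0.53 (0.132), and Ciart, another clock repressor, at 0.77 (0.158). The part of sampling time or hormone level in the order of the arrays was not tested.

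Genes whose values ran most like the main Zbtb16 probe set over the 6 arrays were searched among 8802 genes brighter than the median. The closest by Pearson correlation were Ythdf1 (0.996), Foxo3 (0.994), Ddx46 (0.993), F7 (0.992) and Mrps12 (0.991), and the most opposed were Pex14 (-0.993), Hyi (-0.986) and Asf1b (-0.985). Their own differences were small beside that of Zbtb16, with -0.39 for Foxo3, a forkhead factor, and -0.37 for F7, a clotting factor. In this search 3.70% of genes had a correlation over 0.9, and all these values share the gap between genotypes. Among the members Fkbp5 had the highest correlation with Zbtb16 (0.802, exceeded by 6.49% of all genes) and Sgk1 the lowest (-0.848).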

How the data were processed

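Liver RNA was hybridised to 6 Affymetrix arrays, 3 per genotype, from 400 ng total RNA per the labels' protocols. The deposited values are on a log2 scale. Per the submitters' processing notes the authors used RMA and limma, without a version or setting in the sources used here. RMA brings arrays to a common distribution and compresses differences of dim probe sets.

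Of 38208 probe sets, 13 Affymetrix controls were left out and 34325 had 1 gene symbol in the platform annotation (62 had several and 3808 none). Of these 34131 matched a RefSeq gene by identifier (GRCm38.p6, names only). Genes (18029) were represented by the probe set with the highest mean. HKO minus control was fitted in R 4.3.3 by lmFit and eBayes of limma 3.58.1, two-sided, with Benjamini-Hochberg adjustment over all genes or, for single probe sets, over all 38195, and a threshold of 0.05. An exact permutation test of 3 against 3 cannot go below 0.1, so none was used. The steps were tested on simulated data. The number of arrays limits the precision.

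Members and lists were chosen with earlier results of these data known. The text names the 10 members, the 3 genes of lowest p in each pathway list, the 5 genes most and the 3 least like Zbtb16, and the deleted gene. Outside this rule Il2rb, Tbx21, Ncr1, Mt3, Mt4, Cdkn1a, Ddit4 and Bcl6 were named after their values were seen. The same holds for Cd163, Sox9, Fkbp4, Hpd, Hgd and Fah. It also holds for the clock genes Arntl, Clock, Npas2, Per2, Per3, Cry1, Nr1d2, Dbp and Tef. Alternatives changed the normalization, the filter on dim genes, the choice of probe set, the variance model, array weights, a replicate block, the threshold and the arrays used.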

Additional observations from a re-analysis of the deposited data

How the results depend on the processing

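The comparison was refitted under 18 other settings, 6 of which left out 1 array each. Zbtb16 kept its direction in all of them, with differences between -2.58 and -1.53. Of the 9 tested members 1 passed, Sgk1, with arrays centred on their medians, without the genes below the median, by the median of a gene's probe sets, with trend and robust options, with array weights, and at an adjusted p under 0.1, and 0 to 1 passed without any 1 array. Of their 20 probe sets 1 passed with trend and robust options and at the 0.1 threshold, and 0 to 1 without any 1 array. Over all genes 344 passed at 0.1 and 65 at 0.01, and 78 to 161 without any 1 array. Of the 47 pathway genes 8 passed with trend and robust options (5 rose, 3 fell) and 1 at 0.01, and 1 to 3 without any 1 array. With trend and robust options 250 of all 18029 genes passed (124 rose, 126 fell). Without both arrays numbered 3, a setting added after the data were seen, 41 genes, 1 pathway gene and 0 members passed, with fewer samples in the fit. The sign turned only in differences that passed nowhere. Without any 1 array Mt1 ranged from -0.103 (control 3 left out) to 0.746 and was -0.207 without both arrays numbered 3. Mt2 ranged from -0.319 to 0.301 and was 0.00831 with quantile normalization. Fkbp5 ranged from -0.67 to -0.22 and Dusp1 from 0.424 to 1.08. Tat ranged from -0.142 to 0.39, and Tsc22d3 from -0.275 to 0.339 and was 0.122 without both arrays numbered 3. By the median of probe sets Slc30a1 stood at -0.0448, Nr3c1 at 0.0278, Med1 at 0.0263 and Mtf1 at 0.109. The cause was not tested. Sample numbers are not stated to be shared between genotypes, and deviations of same-numbered arrays from their group means correlated at -0.0938, 0.0692 and 0.112 over all genes, which does not show pairing. Single members differed in this. Same-numbered arrays ran alike in Dusp1, whose SE was 0.340 in the main fit and 0.092 with the replicate block. They did not in Mt1, with 0.388 and 0.394. With the replicate block 125 genes, 4 pathway genes, 1 member (Dusp1, adjusted p = 0.0391) and 1 member probe set passed, while Akr1d1 (0.0642) and Sgk1 (0.112) did not.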
